A study of Mus musculus with 17 samples.

Results

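The genes described here are 39 genes of DNA replication and S phase. They were chosen by symbol from a list and kept where the mean count over the 17 libraries was at least 10. All 39 met that minimum, out of 56691 gene rows in the table. *Orc1* lay closest to it with a mean count of 14.8, the next was *Gins3* with 202, and no listed gene fell below.

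Astrocytes were immunopanned from whole brains of postnatal day 2 C57BL/6 mice with the olfactory bulbs and cerebellum removed. Cells bound by CD45 or O4 antibodies were discarded, cells bound by a HepaCAM antibody were kept, and these were cultured in serum-free medium. That medium held a growth factor, heparin-binding EGF-like growth factor, so the vehicle cultures were not free of growth factors. RNA from the cultures was sequenced from the 3′ end of transcripts. In the first experiment, SAG, an agonist of the sonic hedgehog (SHH) receptor component Smoothened, was given at 500 ng/ml (n = 3) and its vehicle DMSO was given alone (n = 3), from day 3 in vitro and for 3 days. In the second experiment, FGF2 (n = 4) or FGF10 (n = 3), each at 50 ng/ml, or their vehicle PBS (n = 4) was added on day 2 in vitro and kept for 7 days. All cells were from mice of 1 strain with no engineered allele, and the cultures held astrocytes of the brain at large, not of 1 region. The study describes the replicates as biological and as pools of sample. The sources used here do not say whether the pools of a group came from separate panning preparations, so p-values measure the spread between these pools. The labels list 4 FGF2 libraries, all of which were used. The study's methods count fewer FGF2 replicates than the labels, and which library they leave out is not given in the sources used here.

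Before a cell copies its DNA, the origin recognition complex, Cdc6 and Cdt1 load the ring-shaped MCM helicase onto replication origins. In S phase the helicase is activated by Cdc45 and the GINS complex, DNA polymerases copy both strands behind the PCNA clamp, and the short Okazaki fragments of the lagging strand are trimmed and ligated. Many of these genes are controlled by E2F transcription factors and are transcribed mainly in cycling cells, and astrocytes of the neonatal brain still divide. In bulk RNA, a lower level because fewer cells were in S phase and a lower level because each such cell held less of the RNA cannot be told apart.

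Library totals ran from 17481727 to 68342287 counts, and the replication genes together held between 16038 and 107231 counts in a library. The summed level of 10 astrocyte markers was 3428 to 5618 CPM (counts relative to the scaled library total) over the 11 libraries of the FGF experiment and 3680.1 to 4636 CPM over the 6 of the SAG experiment. Of 10 markers of microglia or macrophages, *Aif1*, *Csf1r* and *C1qb* were at 0 in all 17 libraries, and the list summed to at most 19.4 CPM. The SHH target *Ptch1* was at 81.5, 103 and 67.6 CPM in DMSO and at 465, 483 and 458 CPM in SAG. *Gli1*, another SHH target, was at 0 in DMSO and at 38.3, 6.68 and 6.71 CPM in SAG, and both were higher in each SAG library than in any DMSO library. The libraries of the FGF experiment numbered 3 and 4 stood apart from those numbered 1 and 2 in all 3 groups. The labels name no batch for this, and values within each pair of numbers are given wherever a result rests on them.

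The promoter sequences of the members show what the genes share outside these measurements. RefSeq promoters of GRCm38.p6, from 250 bases before to 50 after a start site, were found for 32 of the 39 genes. Those of *Mcm4*, *Gmnn*, *Gins1*, *Gins2*, *Rfc2*, *Prim2* and *Pole* were not in the table. Motifs of the kind bound by E2F factors were searched for on both strands as TTTNGCGC and TTCCCGC, along with CCAAT, the box bound by the factor NF-Y. A gene counted as holding a motif when any of its listed start sites did. TTTNGCGC was in the promoters of 11 of the 32 genes (34.4%), against 1.57% of the 27025 genes of the table. TTCCCGC was in 13 (40.6%), against 5.29%, and at least 1 of the pair was in 18 (56.2%), against 6.66%. CCAAT was in 21 (65.6%), against 41.1%. Promoters of genes named in the results below are given 5′ to 3′ in the direction of the gene, with the E2F-type matches in capitals. *Mcm5* (chr8:75109259-75109558, plus strand) holds a pair of TTTNGCGC matches that overlap on opposite strands. *Mcm7* (chr5:138171834-138172133, minus strand) and *Mcm3* (chr1:20820263-20820562, minus strand) hold 1 match of each kind. *Lig1* (chr7:13278576-13278875, plus strand) holds TTTNGCGC on the opposite strand at 1 of its 3 listed start sites, and *Rrm1* (chr7:102441445-102441744, plus strand) holds TTCCCGC. *Pola2* (chr19:5964157-5964456, minus strand) is shown as a member with neither TTTNGCGC nor TTCCCGC, and other forms of the E2F site were not searched for.
Mcm5: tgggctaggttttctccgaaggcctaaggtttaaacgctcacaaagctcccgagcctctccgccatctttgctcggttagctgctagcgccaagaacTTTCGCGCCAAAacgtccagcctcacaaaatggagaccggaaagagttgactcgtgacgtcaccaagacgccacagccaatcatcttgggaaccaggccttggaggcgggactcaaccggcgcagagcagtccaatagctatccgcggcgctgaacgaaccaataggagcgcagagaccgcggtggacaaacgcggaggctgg
Mcm7: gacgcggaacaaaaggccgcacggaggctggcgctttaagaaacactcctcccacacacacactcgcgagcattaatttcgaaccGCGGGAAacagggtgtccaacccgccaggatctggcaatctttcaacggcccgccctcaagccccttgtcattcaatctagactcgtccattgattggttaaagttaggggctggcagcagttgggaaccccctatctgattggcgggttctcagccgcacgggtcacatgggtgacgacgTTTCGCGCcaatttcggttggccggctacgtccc
Mcm3: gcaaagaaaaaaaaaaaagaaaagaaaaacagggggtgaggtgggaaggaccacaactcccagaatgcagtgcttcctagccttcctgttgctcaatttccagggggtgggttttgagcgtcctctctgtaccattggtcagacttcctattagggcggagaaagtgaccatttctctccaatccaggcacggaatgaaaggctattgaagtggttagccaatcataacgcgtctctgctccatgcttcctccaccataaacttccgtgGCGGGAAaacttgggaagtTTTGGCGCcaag
Lig1: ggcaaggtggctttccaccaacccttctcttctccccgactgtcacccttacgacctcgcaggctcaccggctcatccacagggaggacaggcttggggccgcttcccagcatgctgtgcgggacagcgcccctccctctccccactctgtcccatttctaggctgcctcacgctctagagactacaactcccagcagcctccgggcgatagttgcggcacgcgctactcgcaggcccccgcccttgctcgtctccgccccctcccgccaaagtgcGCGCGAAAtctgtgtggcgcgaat
Rrm1: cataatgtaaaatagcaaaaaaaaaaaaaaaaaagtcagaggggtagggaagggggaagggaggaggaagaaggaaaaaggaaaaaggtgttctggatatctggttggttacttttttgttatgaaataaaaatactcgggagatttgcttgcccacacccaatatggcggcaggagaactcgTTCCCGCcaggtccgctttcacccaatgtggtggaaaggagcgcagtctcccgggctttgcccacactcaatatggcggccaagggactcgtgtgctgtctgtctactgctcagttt
Pola2: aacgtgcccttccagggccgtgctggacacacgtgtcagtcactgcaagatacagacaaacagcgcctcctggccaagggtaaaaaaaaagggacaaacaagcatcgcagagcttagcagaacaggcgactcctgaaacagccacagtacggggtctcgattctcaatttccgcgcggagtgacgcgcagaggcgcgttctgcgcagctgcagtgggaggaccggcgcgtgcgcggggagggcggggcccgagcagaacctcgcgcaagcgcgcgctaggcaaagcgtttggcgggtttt

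Most members were transcribed at a modest level, given here as CPM after TMM scaling over the 17 libraries. Because reads come from the 3′ end of transcripts, CPM of different genes in these libraries were set side by side without dividing by length. Whether copies made in amplification were counted once is not given in the sources used here, so this order of genes is approximate. *Mcm7*, a subunit of the MCM helicase, had the highest mean over all libraries at 164 CPM and made up 15.3% of the summed mean level of the members. It was followed by *Rfc1* (83.1 CPM), the large subunit of the loader that places PCNA on DNA, and by *Lig1* (79.3 CPM), the ligase that seals Okazaki fragments. *Rpa1* (69.4 CPM), which coats single-stranded DNA, and *Rfc3* (54.5 CPM), another loader subunit, came next. The lowest means were those of *Orc1* (0.286 CPM), the largest origin recognition subunit, *Gins3* (4.99 CPM), and the flap nuclease gene *Fen1* (5.46 CPM). *Orc1* had counts in SAG replicate 2 (3.04 CPM) and FGF10 replicate 1 (1.82 CPM) and in no other library.

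**Figure D1:**
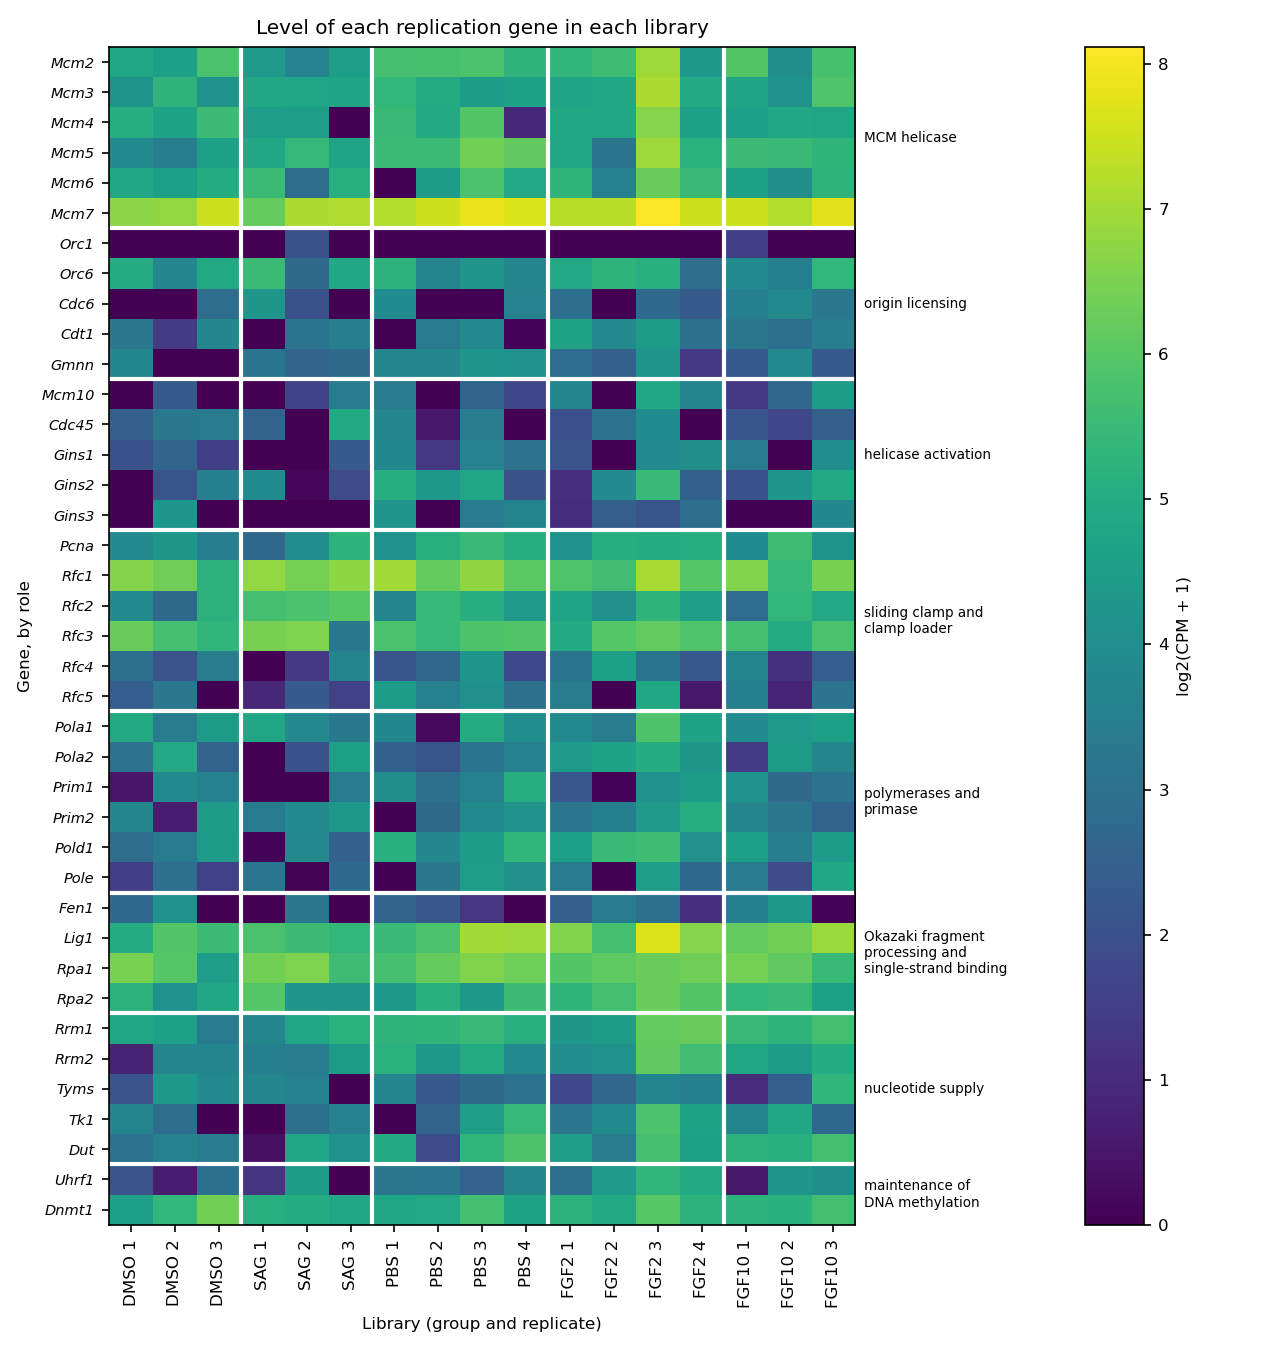
Level of each of the 39 replication genes (y axis, grouped by role, with white lines between roles) in each of the 17 libraries (x axis, with white lines between groups), as log2(CPM + 1) in colour. *Mcm7* is high throughout, *Orc1* is at 0 in nearly every library, and the FGF2 replicate 3 column is the brightest, being the highest of the 17 libraries for 18 of the 39 genes.

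The levels of single members varied widely between libraries of the same group. Of the 663 values, 65 were 0, and 18 members had a count in every library. A 0 was not confined to weakly expressed members. *Mcm4* was at 22.1, 22.6 and 0 CPM in SAG and *Mcm6* at 0, 21.1, 55.8 and 28.9 CPM in PBS, and both are subunits of the same ring as *Mcm7*, which had no value under 72.5 CPM. The biological coefficient of variation fitted over all genes was 107% to 117% in the 5 comparisons, so that a single member needed a large difference to pass the test. Exons of a gene on the opposite strand overlapped 12 members in the GENCODE M21 annotation, and for *Mcm7* (*Cops6*), *Gins2* (*Gse1*), *Rfc4* (*Eif4a2*), *Rfc5* (*Wsb2*) and *Fen1* (*Gm10143*) the overlap lay in the last 500 bases of the gene. Whether strand was used in counting is not given in the sources used here, so reads of such pairs cannot be told apart. Pseudogenes named after *Pcna* and *Tyms* may share reads with them, and values of these 2 genes are uncertain for that reason.

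By role, the 6 MCM helicase genes had group means of their summed level between 235 CPM (SAG) and 436 CPM (FGF2). The 5 origin licensing genes, which load that helicase or, in the case of *Gmnn*, block its reloading, summed to group means of 38.5 to 54.6 CPM. The highest of them was *Orc6*, with a range of 6.07 to 45.4 CPM over the libraries. The helicase activation genes *Mcm10*, *Cdc45*, *Gins1*, *Gins2* and *Gins3* had group means of their sum of 22.5 to 47.6 CPM, a range that overlapped that of the licensing genes, and *Gins2* was the highest of them (0 to 43.4 CPM). Among the 6 polymerase and primase genes, *Pold1*, the catalytic subunit of polymerase delta, was the highest, with a mean of 20.4 CPM and a range of 0.0575 to 47.2 CPM. Nucleotide supply was led by *Rrm1*, the large subunit of ribonucleotide reductase (35.6 CPM), and DNA methylation maintenance by *Dnmt1*, the maintenance methyltransferase (38.6 CPM). The clamp itself, *Pcna*, had a mean of 24.6 CPM, below its loader subunits *Rfc1* and *Rfc3*.

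Summed over the 39 members, the level was 793, 789.9 and 856 CPM in DMSO and 874, 868 and 849 CPM in SAG. It was 1045, 927, 1435 and 1179 CPM in PBS, 933, 919, 2247 and 1174 CPM in FGF2 and 1046, 956 and 1295 CPM in FGF10. The FGF experiment was thus higher than the SAG experiment in every library, the DMSO and SAG ranges overlapped, and so did those of PBS, FGF2 and FGF10. FGF2 replicate 3 stood alone, and the next library was PBS replicate 3. The FGF2 mean was 1318 ± 630.1 CPM (SD, n = 4), with the other 3 libraries of that group at 919 to 1174 CPM.

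**Figure D2:**
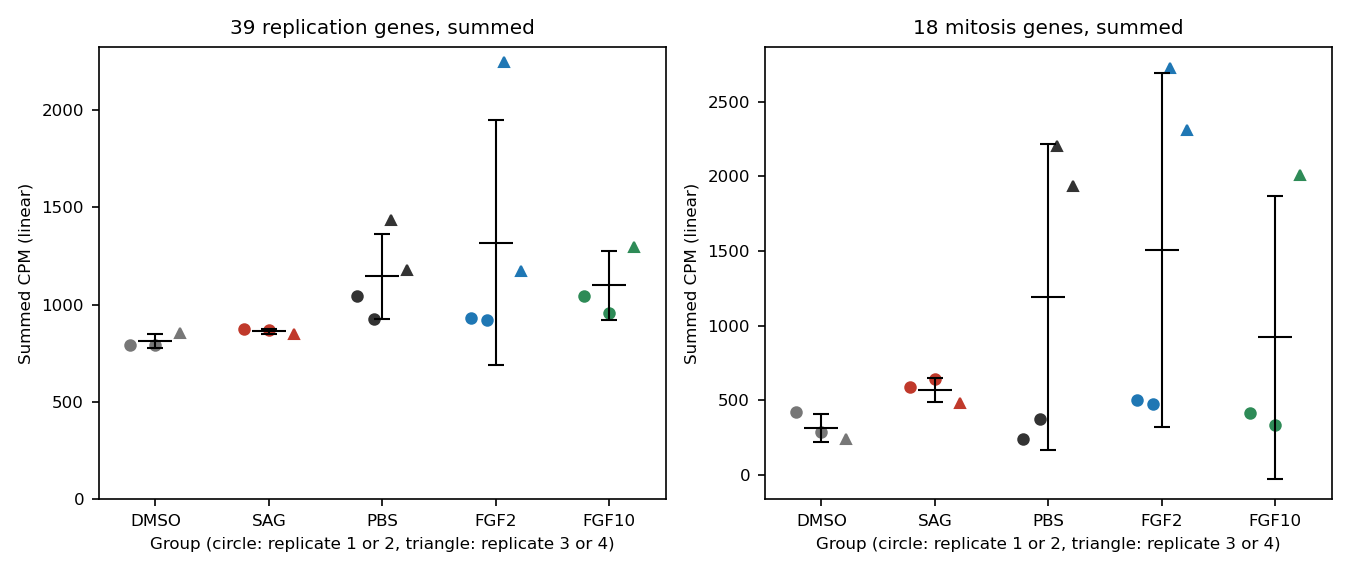
Summed CPM (y axis, linear) of the 39 replication genes (left) and of 18 mitosis genes (right) in each library, by group (x axis), with the mean and SD. Circles are replicates 1 and 2 and triangles replicates 3 and 4. The replication sum is highest in FGF2 replicate 3 (2247 CPM), while the mitosis sum lies at 1938 CPM or more in all 5 triangles of the FGF experiment and at 498 CPM or less in its 6 circles.

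SAG was compared with DMSO to ask which genes respond to SHH signaling. No replication gene passed the test with SAG, and members were fitted in both directions. 22 of the 37 tested were fitted higher and 15 lower, with a median log2(fold-change) of 0.16, against -0.02 over all 12538 genes tested. *Rfc2*, a small subunit of the clamp loader, and *Mcm5* lay above DMSO in every SAG library, and *Mcm2* and *Mcm4* lay below in every one. The quasi-likelihood test of edgeR, adjusted by the Benjamini-Hochberg method, called 0 of 37 members at an adjusted p under 0.05, where 0.0638% of all genes tested were called. 1 member had an unadjusted p under 0.05, as did 714 of the 12538 genes tested. The DESeq2 Wald test called 0 members and 398 of 13210 genes. Without SAG replicate 1 the median was -0.011, and without SAG replicate 3 it was -0.027.

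*Rfc2* was at 13.8, 5.93 and 36.5 CPM in DMSO and at 51, 54.2 and 63.9 CPM in SAG. The SAG libraries lay close together, well above DMSO replicates 1 and 2 and less far above DMSO replicate 3. The log2(fold-change) was 1.62 (SE 0.65), with an edgeR quasi-likelihood adjusted p of 0.746, and the exact two-sided permutation p was 0.1, the smallest that 3 against 3 libraries allow. *Mcm5* was at 14.1, 9.997 and 23.5 CPM in DMSO and 27.5, 41.7 and 25.5 CPM in SAG, so that the lowest SAG library lay just above the highest DMSO library. Its log2(fold-change) was 1.01 (SE 0.71). *Mcm2* went the other way, at 27.9, 23.1 and 54 CPM in DMSO and 20.2, 11.2 and 22 CPM in SAG. Here too the groups were separated by a narrow gap, and the log2(fold-change) was -0.95 (SE 0.67). *Mcm4*, at 32, 25.3 and 46 CPM in DMSO, was lower in the 3 SAG libraries, 1 of which was at 0, with a log2(fold-change) of -1.19 (SE 1.37). The fitted values of these subunits of 1 ring thus lay on both sides of 0. The intervals of *Mcm5*, *Mcm2* and *Mcm4* all held 0, so a movement in opposite directions was not shown. Members above every control library numbered 2 of 37, where 5.96% of all genes did so, and those below numbered 2, where 8.21% did.

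**Figure D3:**
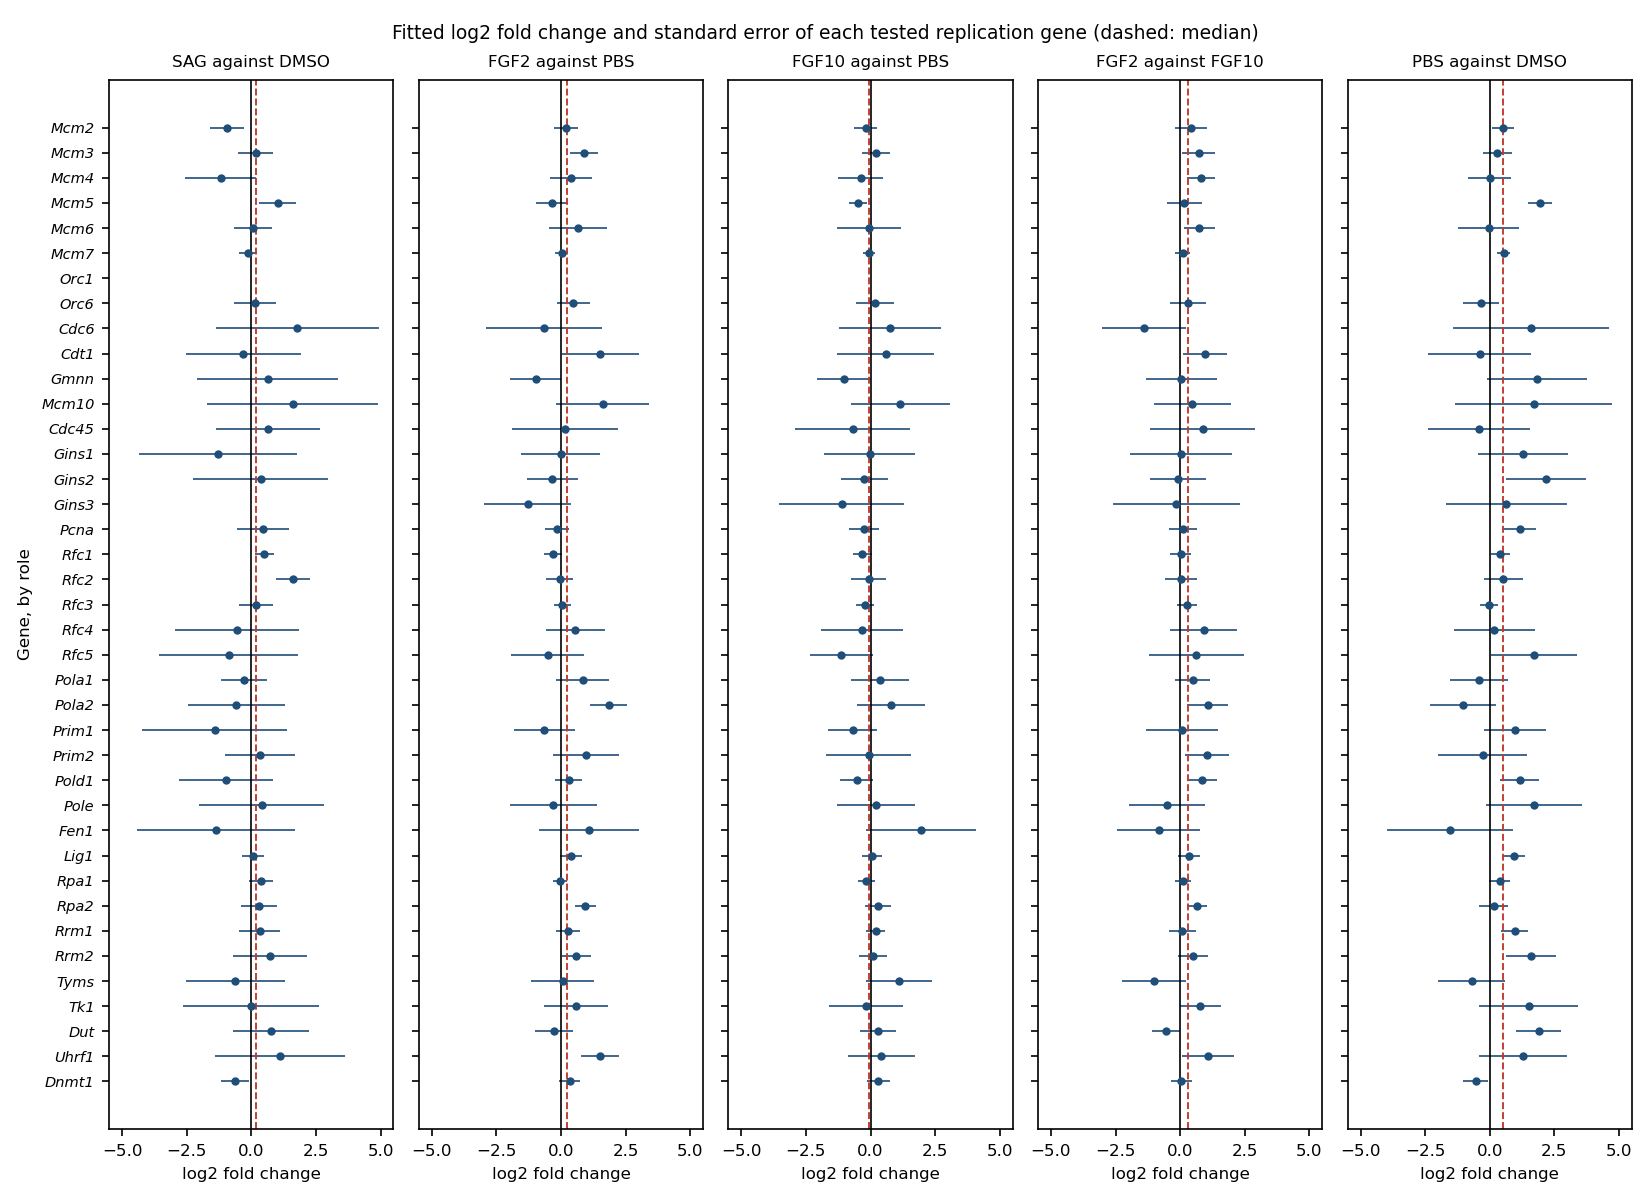
Fitted log2(fold-change) with its SE (x axis) for each tested replication gene (y axis, by role) in the 5 comparisons, with the median of the members as a dashed line. The bars cross or approach 0 for nearly every gene, and the dashed line lies farthest from 0 for PBS against DMSO, at 0.53.

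The genes around the replication machinery gave a mixed picture with SAG. Of 21 tested regulators of the passage from G1 to S phase, 2 were called and both rose: *Cdk6*, a kinase that acts on the retinoblastoma protein (log2(fold-change) 1.96, SE 0.24, edgeR adjusted p 0.0117), and its partner cyclin D1, *Ccnd1* (2.33, SE 0.33, edgeR adjusted p 0.0366). *Ccnd1* was at 39.4, 68.2 and 34.6 CPM in DMSO and 316, 213 and 177 CPM in SAG. Of 17 tested mitosis genes, 15 were fitted higher with a median of 0.64, and 0 were called. Their sum was 421, 285 and 242 CPM in DMSO and 586, 639 and 481 CPM in SAG. *Top2a*, the topoisomerase that untangles chromosomes before division, had the smallest p of this list, with a log2(fold-change) of 0.96 (SE 0.39). The 4 lists of further replication genes held no call. Their genes with the smallest p were *Cdca7* (-1.95) among 12 chromatin genes, *Pold3* (-1.43) among 14 polymerase and fork genes, *Dtymk* (0.97) among 10 nucleotide genes and *Orc2* (-0.93) among 14 licensing genes. Markers of other cells moved with SAG as well. The oligodendrocyte lineage list summed to 2406, 1987 and 2096 CPM in DMSO and 3857, 3694 and 3663 CPM in SAG, nearly all of it *Olig1* and *Olig2*. Of its 10 markers, 8 were tested, 3 were fitted higher and 5 lower, and *Olig1* was called. *Mag* was at 0 in all 3 SAG libraries, *Mog* was at 0 in all 6 libraries, and the part of these cells in the result was not tested.

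FGF2 was compared with PBS to ask which genes respond to FGF signaling. The replication genes were not called with FGF2 either. 24 of 38 were fitted higher and 14 lower, with a median log2(fold-change) of 0.24, against 0.0011 over the 12744 genes tested. This direction changed when FGF2 replicate 3 was left out, with 14 higher, 24 lower and a median of -0.098. Leaving it out also left fewer FGF2 than PBS libraries numbered 3 or 4. edgeR called 0 of 38 members, and 0% of all genes passed the same threshold. 2 members had an unadjusted p under 0.05, as did 223 of the 12744 genes tested. DESeq2 called 0 members and 120 of 14910 genes. Within replicates 1 and 2 the median difference was 0.061, and within replicates 3 and 4 it was 0.27.

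*Pola2*, the regulatory subunit of the polymerase alpha and primase complex that starts each Okazaki fragment, was at 4.75, 3.29, 7.76 and 10.7 CPM in PBS and at 19.8, 24.4, 31.8 and 18.7 CPM in FGF2. Every FGF2 library lay above every PBS library. The log2(fold-change) was 1.84 (SE 0.72), the edgeR adjusted p was 1, and the exact two-sided permutation p was 0.0286, the smallest that 4 against 4 allow when libraries are permuted freely. FGF2 and PBS libraries of the same number were also taken as pairs, although whether they are pairs was not established. The exact two-sided sign-flip permutation p was then 0.125, the smallest that 4 pairs allow. The DMSO libraries of the other experiment, at 7.22, 28.9 and 4.99 CPM, spanned nearly the whole range of both. *Pola2* was the only 1 of 38 members without overlap on the higher side, where 1.22% of all genes had none, and 0 members were below throughout, where 1.23% of all genes were. *Rpa2*, a subunit of the single-strand binding complex, was at 19.2, 33.4, 19 and 46.2 CPM in PBS and 38.7, 49.6, 77 and 60.7 CPM in FGF2, with overlapping groups but FGF2 higher in 4 of 4 pairs, and a log2(fold-change) of 0.95 (SE 0.40). *Uhrf1*, which brings Dnmt1 to newly copied DNA, was at 8.38, 8.15, 4.88 and 12.5 CPM in PBS and 6.81, 19.4, 39.2 and 30.2 CPM in FGF2. Here the FGF2 libraries other than replicate 1 lay above PBS, and the log2(fold-change) was 1.5 (SE 0.74). Within pairs, 6 of 38 members were higher with FGF2 in 4 of 4, where 6.41% of all genes were. These were *Pola2*, *Rpa2*, the polymerase alpha catalytic subunit *Pola1*, the primase subunit *Prim2*, the licensing factor *Cdt1* and *Dnmt1*. *Gmnn*, the inhibitor of Cdt1, was the 1 member lower in 4 of 4, where 5.88% of all genes were.

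FGF2 replicate 3 was set apart by many members at once. *Mcm2* was at 39.4, 47, 122 and 19.1 CPM in the 4 FGF2 libraries, and *Mcm3* was at 25.7, 28, 136 and 30.1 CPM. *Mcm5* was at 26.9, 7.68, 122 and 35.3 CPM, and *Lig1* was at 95.5, 51, 207 and 99.2 CPM. In each of these genes replicate 3 was the highest, and for *Mcm3* the other 3 lay close together. *Pcna*, by contrast, was at 16.9, 32.3, 31.8 and 32.1 CPM, where replicate 3 was level with 2 others, and *Rpa1* was at 60.6, 68.3, 76.9 and 80.3 CPM. The mitosis sum of that library, 2729 CPM, was also the highest of its group, and FGF2 replicate 4 was close behind at 2313 CPM although its replication sum lay within the PBS range. *Ccnd1* reached 1017 CPM in replicate 3, against 339 CPM in replicate 4.

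**Figure D4:**
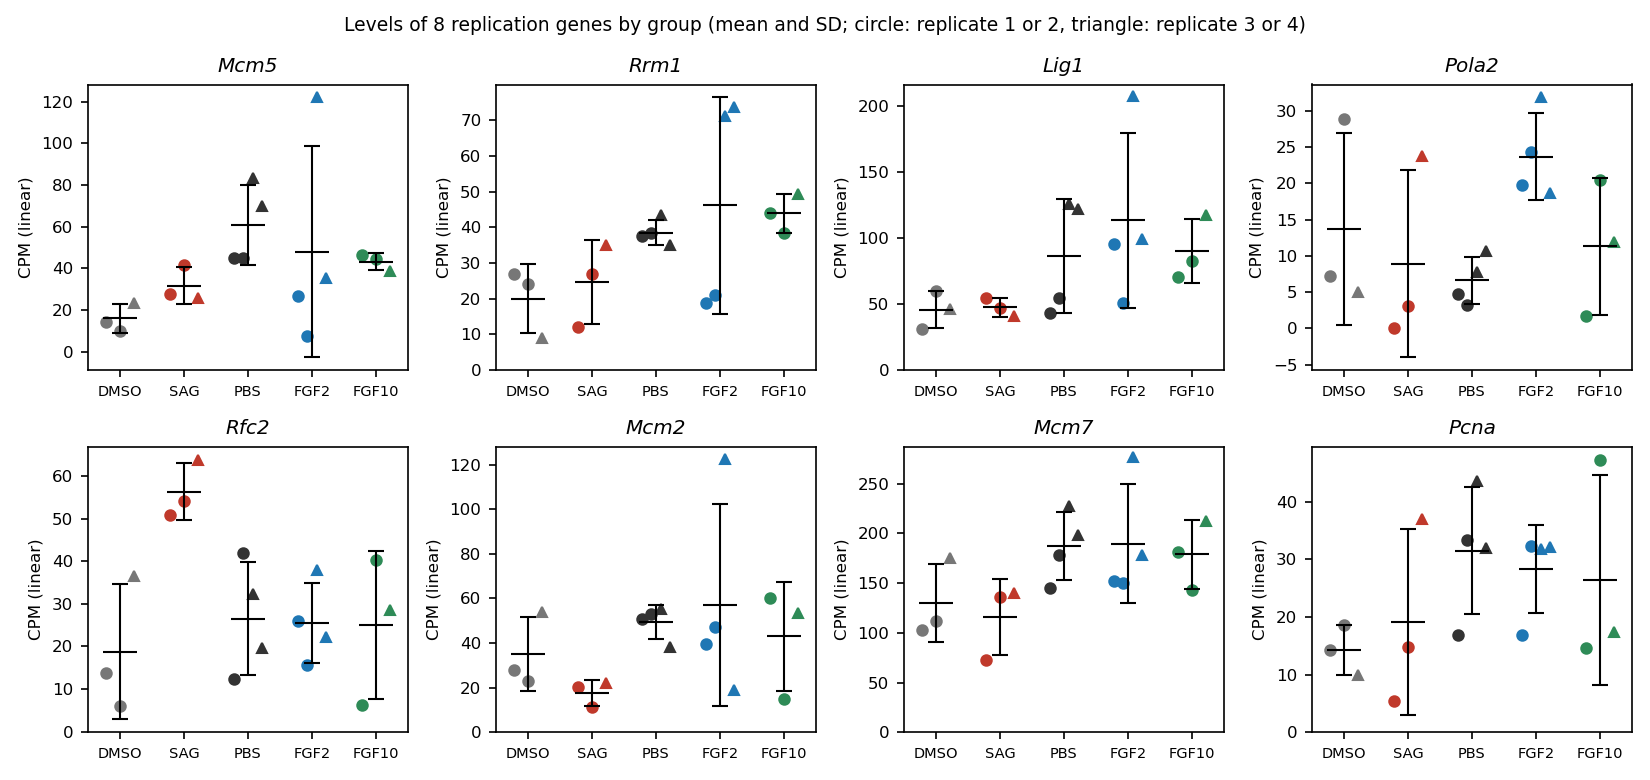
CPM (y axis, linear) of 8 replication genes in every library by group (x axis), with the mean and SD. Circles are replicates 1 and 2 and triangles replicates 3 and 4. All PBS points of *Mcm5* and *Rrm1* lie above the DMSO points, all FGF2 points of *Pola2* above the PBS points and all SAG points of *Rfc2* above the DMSO points, while *Mcm2* in SAG lies below DMSO.

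Of the further lists with FGF2, none held a call. Mitosis genes were fitted higher for 17 of 18 with a median of 0.34, and *Birc5*, a component of the chromosomal passenger complex, had the smallest p (1.07, SE 1.12). *Topbp1*, which helps to activate the helicase and the checkpoint, lay above PBS in every FGF2 library, with a log2(fold-change) of 1.08 (SE 0.42). *Chaf1b*, of the histone chaperone that follows the fork, also lay above in every library, with a mean of 11.5 CPM in FGF2. In PBS it was near the floor, at 1.56, 0, 1.23 and 0 CPM (mean 0.696 CPM). These were 1 of 15 tested licensing genes and 1 of 12 chromatin genes, where 1.22% of all genes lay above in this way. *Ccnd2* (0.58, SE 0.26) and *Atad5* (1.54, SE 0.74) had the smallest p of their lists, with overlapping groups.

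With FGF10, which was compared with the same PBS libraries, the replication genes showed no common direction. 17 of 38 members were fitted higher and 21 lower, with a median of -0.058, against -0.0016 over the 13309 genes tested. edgeR called 0 members and 0% of all genes. 0 members had an unadjusted p under 0.05, where 305 of the 13309 genes tested did. DESeq2 called 0 members and 104 of 15610 genes. 0 members lay above PBS in every FGF10 library, where 2.77% of all genes did, and 0 lay below, where 2.02% did. The sign of the median turned with single libraries, being 0.12 without PBS replicate 3, 0.055 without FGF10 replicate 1 and 0.083 without FGF10 replicate 2. Of the FGF10 libraries 1 of 3 was numbered 3 or 4, and of the PBS libraries 2 of 4, the numbers with the higher member sums. Within replicates 1 and 2 the median difference was 0.014, and within replicates 3 and 4 it was 0.10. *Mcm5* had the smallest p of the members. It was at 44.9, 45, 83.4 and 69.9 CPM in PBS and 46.2, 44.6 and 38.6 CPM in FGF10, so that FGF10 lay near PBS replicates 1 and 2 and below replicates 3 and 4. Its log2(fold-change) was -0.49 (SE 0.36), and within replicates 1 and 2 the difference was 0.014. *Gmnn*, the inhibitor of Cdt1, was at 12.1, 12.4, 18.1 and 16.9 CPM in PBS and 4.15, 13.9 and 3.89 CPM in FGF10, with a log2(fold-change) of -1.02 (SE 1.03). *Rfc5*, another clamp loader subunit, had a log2(fold-change) of -1.13 (SE 1.22), and its groups overlapped too. No gene of the 6 further lists was called, and 2 of 18 mitosis genes were fitted higher, with a median of -0.34. The mitosis genes summed to 237, 377, 2202 and 1938 CPM in PBS and to 414, 335 and 2011 CPM in FGF10. The part of the unequal share of replicates 3 and 4 in the median of these genes was not tested. The smallest p of each list belonged to *Cdkn1b* (0.33), *Cenpe* (-0.55), *Cdc7* (-2.03), *Chaf1b* (3.56), *Atad5* (1.28) and *Cmpk1* (-0.99). *Chaf1b* was near the floor in PBS, at 1.56 CPM or less.

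FGF2 and FGF10 were also set against each other. 31 of 38 members were fitted higher with FGF2 and 7 lower, with a median of 0.30, against 0.0085 over the 13493 genes tested. Without FGF2 replicate 3 this turned to 16 higher and 22 lower, with a median of -0.18. Of the FGF2 libraries 2 of 4 were numbered 3 or 4, and of the FGF10 libraries 1 of 3. The part of this unequal share in the result was not tested. edgeR called 0 members and 0% of all genes. 0 members had an unadjusted p under 0.05, where 324 of the 13493 genes tested did. DESeq2 called 0 members and 90 of 16585 genes. *Cdc6*, which loads the helicase together with Cdt1, was the 1 member without overlap. It was at 6.59, 0, 5.8 and 4.0 CPM in FGF2 and 10.5, 13.4 and 8.59 CPM in FGF10, all of them low values, with the FGF2 libraries below. The log2(fold-change) was -1.39 (SE 1.63), with an exact two-sided permutation p of 0.0286 and an edgeR adjusted p of 1. Of all genes, 2.57% lay below in this way and 2.33% above, where no member lay. The smallest p belonged to *Rpa2* (0.66, SE 0.38), *Pold1* (0.85, SE 0.56) and *Mcm4* (0.79, SE 0.54). *Mcm4* was at 27.3, 27.9, 98.3 and 23.8 CPM in FGF2 and 22.7, 27.7 and 26.7 CPM in FGF10, where replicate 3 of FGF2 alone lay above the rest. Among the further lists 0 genes were called, and *Cdkn1a* (0.83), *Top2a* (0.76), *Orc5* (1.14), *Atad2* (1.57), *Tipin* (0.96) and *Samhd1* (0.96) had the smallest p of theirs.

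Of the 5 comparisons, the one between the vehicle groups had the median farthest from 0. PBS cultures had a higher level of most replication genes than DMSO cultures, with 26 of 38 fitted higher, 12 lower and a median log2(fold-change) of 0.53, against 0.018 over the 13271 genes tested. Vehicle, the day of first treatment, its length and the experiment all differ between these groups and cannot be told apart. Leaving out any 1 library gave medians of 0.43 to 0.70. PBS replicates 1 and 2 alone gave 0.35 against DMSO, and replicates 3 and 4 alone gave 0.81. edgeR called 0 of 38 members and 0% of all genes. 3 members had an unadjusted p under 0.05, as did 580 of the 13271 genes tested. The DESeq2 Wald test called 1 member, *Mcm5*, and 193 of 14884 genes.

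*Mcm5* was at 14.1, 9.997 and 23.5 CPM in DMSO and 44.9, 45, 83.4 and 69.9 CPM in PBS. The lowest PBS library lay well above the highest DMSO library, and replicates 3 and 4 were higher than 1 and 2. The means were 60.8 ± 19.1 CPM in PBS (SD, n = 4) and 15.9 ± 6.93 CPM in DMSO (SD, n = 3). The log2(fold-change) was 1.95 (SE 0.47), with an adjusted p of 0.978 in edgeR and 0.00118 in DESeq2, and an exact two-sided permutation p of 0.0286. Within replicates 1 and 2 of PBS the difference from DMSO was 1.59. *Rrm1* was at 26.8, 24.2 and 9.02 CPM in DMSO and 37.5, 38.4, 43.3 and 35 CPM in PBS, where the PBS libraries lay close together and above all DMSO libraries. Its log2(fold-change) was 0.96 (SE 0.53). *Rrm2*, the small subunit of the same enzyme, made mainly in S phase, was at 0.698, 12.3 and 12 CPM in DMSO and 35.6, 19.1, 31 and 13.7 CPM in PBS, again without overlap. Its log2(fold-change) was 1.59 (SE 0.98). These were the 3 of 38 members above in every library, where 3.04% of all genes were, and 0 members were below, where 3.41% were. *Dut*, which keeps uracil out of DNA, was at 7.08, 10.6 and 8.86 CPM in DMSO and 30.3, 2.7, 39.7 and 56.8 CPM in PBS, where replicate 2 of PBS lay below DMSO. Its log2(fold-change) was 1.89 (SE 0.87).

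*Lig1* was at 31.4, 59.5 and 46.2 CPM in DMSO and 43.6, 54.9, 126 and 122 CPM in PBS, so that PBS replicates 1 and 2 lay within the DMSO range and replicates 3 and 4 above it. The log2(fold-change) was 0.94 (SE 0.42). Not every member was higher. *Dnmt1* (-0.54, SE 0.49), *Pola2* (-1.04, SE 1.27) and *Fen1* (-1.53, SE 2.43) were fitted lower, with intervals that held 0. Among the members named above as higher, the intervals of *Rrm1* and *Rrm2* held 0 too. Of 18 mitosis genes, 18 were fitted higher, with a median of 1.99, 9 with an unadjusted p under 0.05 and 0 called. Their sum was above the DMSO range in PBS replicates 3 and 4 and not in replicates 1 and 2. The smallest p was that of *Ube2c*, which marks mitotic cyclins for destruction (3.65, SE 0.97). In the other lists, with 0 genes called, it was that of *Dtymk* (1.16), *Ccnd1* (1.64), *Orc5* (1.22), *Rnaseh2b* (1.15) and *Asf1a* (0.27).

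Markers of astrocytes and other cells also differed between PBS and DMSO libraries. The 10 astrocyte markers summed to 4428, 4636 and 4261 CPM in DMSO and 5279, 5129, 3972 and 3741 CPM in PBS, with 5 fitted higher, 5 lower and 4 with an unadjusted p under 0.05. PBS replicates 1 and 2 lay above the DMSO range and replicates 3 and 4 below it. The oligodendrocyte lineage list summed to 2406, 1987 and 2096 CPM in DMSO and 1843, 1939.7, 3482 and 3725 CPM in PBS, with 7 of 9 tested markers fitted higher. Here replicates 3 and 4 lay above DMSO and replicates 1 and 2 below it. The endothelial and mural list summed to 140.1, 138 and 233 CPM in DMSO and 315, 315, 83.5 and 99.2 CPM in PBS, with 3 of 3 tested markers fitted higher, and PBS replicates 1 and 2 lay above DMSO. The endothelial markers *Cldn5*, *Cdh5* and *Pecam1* were at 0 in all of these libraries. *Kdr*, of the same list, was at 0, 1.09 and 5.81 CPM in DMSO and 9.81, 8.32, 8.05 and 8.58 CPM in PBS. *Flt1* was at 3.33 CPM or less. Neuronal markers summed to 63.2, 123 and 210.4 CPM in DMSO and 134, 169, 77 and 126 CPM in PBS and fibroblast markers to 71.5, 29 and 32.9 CPM and 83, 31.4, 5.17 and 37.9 CPM, with overlapping groups. Microglial markers were at 2.57 to 4.31 CPM in DMSO, nearly all of it *Cd68*, and at 0 to 0.0856 CPM in PBS, with *Aif1*, *Csf1r* and *Cx3cr1* at 0 in all of them. 0 of these markers were called, and their part in the result was not tested.

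Within the FGF experiment, the summed level of the replication genes was higher in replicates numbered 3 and 4 than in those numbered 1 and 2 in each of the 3 groups. This difference was found in an earlier analysis of these data and is described without a test. 34 of 38 members were fitted higher over 5 against 6 libraries, with a median log2 difference of 0.55, against -0.035 over 14553 genes. The members summed to 1466 CPM on average in replicates 3 and 4 and to 971 CPM in replicates 1 and 2, a ratio of 1.51. Without FGF2 replicate 3 the ratio was 1.31, and 27 of 39 members had the higher mean CPM in replicates 3 and 4, against 33 of 39 with it. The lowest library of the first kind was at 1174 CPM and the highest of the second at 1046 CPM, so the sums did not overlap, with or without that library.

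**Figure D5:**
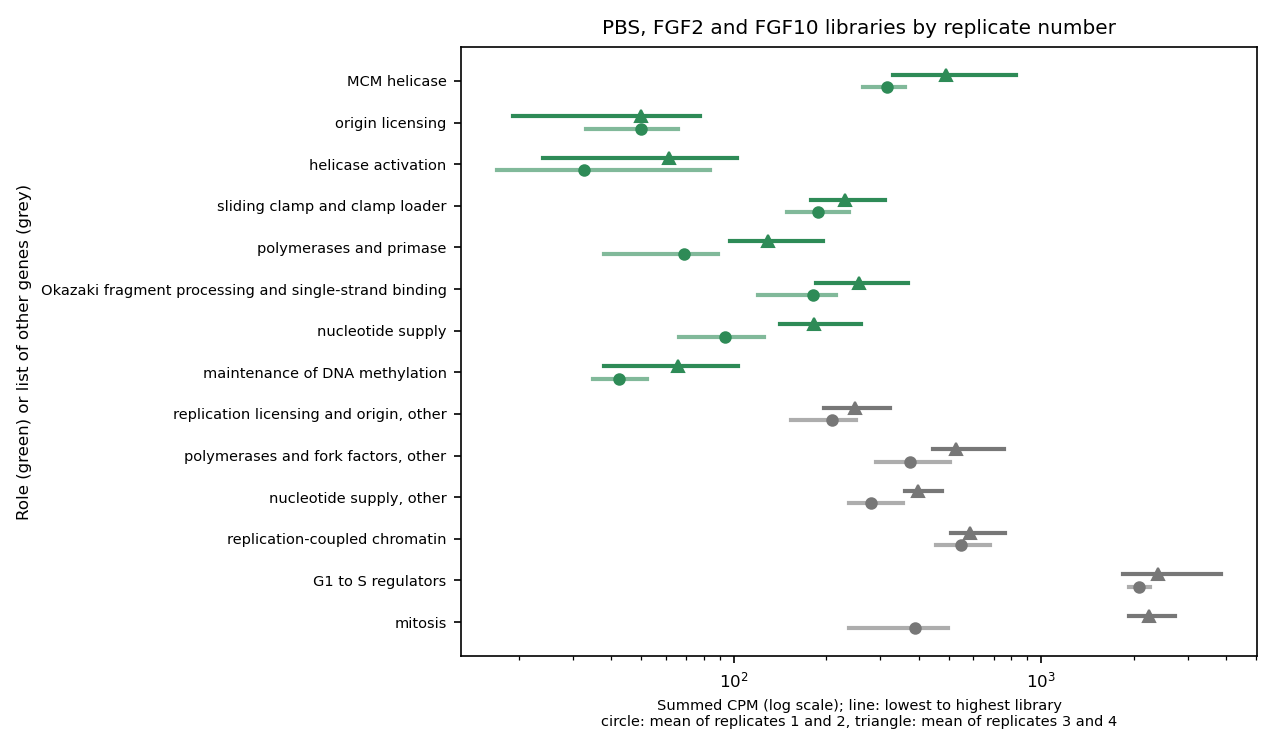
Summed CPM (x axis, log scale) of each role of the replication genes (green) and of each list of other genes (grey) in the PBS, FGF2 and FGF10 libraries, as the mean over replicates 1 and 2 (circle, 6 libraries) and over replicates 3 and 4 (triangle, 5 libraries) with a line from the lowest to the highest library. Polymerase and nucleotide supply sums do not overlap, and the mitosis list is separated by far the most, at 390 and 2239 CPM.

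The roles differed in how far apart these libraries lay. Nucleotide supply genes summed to 66.2 to 125 CPM in replicates 1 and 2 and to 142 to 259 CPM in replicates 3 and 4, a ratio of means of 1.95. Polymerase and primase genes summed to 37.7 to 89.2 CPM and 96.9 to 196 CPM, a ratio of 1.87. These were the roles without overlap. The ratio was 1.9 for helicase activation, 1.56 for the MCM helicase and 1.55 for DNA methylation maintenance. It was 1.42 for Okazaki fragment processing, 1.22 for the clamp and its loader, and 0.996 for origin licensing, whose libraries spanned 19.1 to 77.8 CPM in replicates 3 and 4 and 33.1 to 65.9 CPM in replicates 1 and 2. Without FGF2 replicate 3 the ratios of the 8 roles ran from 0.856 for origin licensing to 1.75 for nucleotide supply. By gene, the difference on the log2 scale was 2.04 for *Tk1*, the salvage kinase for thymidine, 1.97 for *Pole*, the catalytic subunit of polymerase epsilon, and 1.48 for *Mcm6*. *Pcna* (0.20), *Rpa1* (0.13) and *Orc6* (-0.017) were near 0, and *Fen1* was fitted lower (-2.46).

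*Lig1* was the only member whose libraries did not overlap, with 43.6 to 95.5 CPM in replicates 1 and 2 and 99.2 to 207 CPM in replicates 3 and 4. That is 1 of 38, where 2.49% of all genes lay above in this way, and 0 members lay below, where 2.32% did. The mitosis list stood much farther apart than the members. It summed to 237, 377, 2202 and 1938 CPM in PBS, 498, 477, 2729 and 2313 CPM in FGF2 and 414, 335 and 2011 CPM in FGF10, a ratio of 5.74 between the means (5.43 without FGF2 replicate 3). Of its 18 genes, 15 did not overlap. *Mki67*, a marker of cycling cells, was at 11.2, 16.1, 140.4 and 156 CPM in PBS and *Top2a* at 53.9, 129, 594 and 592 CPM. The G1 to S regulators lay closer together, with a ratio of 1.15 (0.977 without FGF2 replicate 3). Within replicates 1 and 2 of the FGF experiment the mitosis sums, 237 to 498 CPM, spanned the DMSO range, while the replication sums there (919 to 1046 CPM) were above all DMSO libraries.

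Markers of other cells moved with the replicate numbers too. The 10 astrocyte markers summed to 3428 to 3972 CPM in replicates 3 and 4 and to 4706 to 5618 CPM in replicates 1 and 2, with 9 of 10 fitted lower in the former. The oligodendrocyte lineage list summed to 3298 to 4315 CPM and 1843 to 2142 CPM, with 3 of 9 tested markers higher, *Olig1* and *Olig2* making up most of the sum, and *Mbp* at 0 in FGF2 replicates 3 and 4. The endothelial and mural list, in which *Cldn5*, *Cdh5*, *Vtn* and *Kcnj8* were at 0 in all libraries, summed to 41 to 99.2 CPM and 158 to 357 CPM, mostly *Acta2*, with 3 of 4 tested markers lower. *Kdr*, of the same list, was at 0 to 8.58 CPM in replicates 3 and 4 and 0 to 14.5 CPM in replicates 1 and 2. Neuronal markers summed to 56.1 to 182 CPM and 134 to 230.3 CPM, with 7 of 9 lower and *Slc17a7* at 0 throughout. Fibroblast markers summed to 5.17 to 61.7 CPM and 18.2 to 83 CPM, with *Lum* at 0 throughout. The part of these cells in the difference of the replication genes was not tested. The further replication lists were closer to the members than to the mitosis genes, with ratios of 1.41 for other nucleotide genes, 1.4 for other polymerase and fork genes, 1.2 for other licensing genes and 1.07 for replication-coupled chromatin genes.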

How the data were processed

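RNA of 17 libraries of immunopanned mouse astrocytes had been prepared with a 3′-end kit (Lexogen QuantSeq FWD). The authors aligned reads to GRCm38 and deposited raw counts per gene from STAR. Annotation, strand setting and the use of molecular identifiers are not given in the sources used here. Columns named Shh were matched to SAG by replicate number. 114 spike-in rows were left out.

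The members and all gene lists were chosen with earlier results of these data known. Each comparison was fitted on the deposited counts of its 2 groups with edgeR 4.0.16 (R 4.3.3) after filterByExpr (minimum count 10, minimum total 15) and TMM, by the quasi-likelihood test, with p-values adjusted over all genes tested (Benjamini-Hochberg) and calls at an adjusted p under 0.05. SE is the fold change divided by the square root of F, with 95% intervals from 1.96 SE. CPM were scaled by TMM over 17 libraries, and single values were tested by exact two-sided permutation. Intervals of CPM cover no error beyond the spread of libraries. The edgeR script was tested on simulated data. DESeq2 1.42.0 and other filters and scalings were alternatives. The study's threshold in DESeq2 was 0.01 for the adjusted p, with log2 fold changes over 1. RefSeq promoters and GENCODE M21 match the build of the counts.

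Genes were named by rule: per comparison every member called, every member without overlap and the 3 smallest unadjusted p, the 5 highest and 3 lowest mean levels, the highest of each role, the called gene or else the smallest p of each list, and *Mki67*, *Top2a*, *Ccnd1*, *Ptch1* and *Gli1*. A gene that this rule names is not reported here. *Tk1*, *Pole*, *Mcm3*, *Mcm6*, members of one sign in every pair, other members in the accounts of FGF2 replicate 3 and of the replicate numbers, and markers at 0 were chosen after their values were seen. Replicate numbers come from the labels. Deviations from the group mean over 9070 genes were correlated between FGF2 and PBS libraries of the same number. The correlations were 0.136, 0.149, 0.159 and 0.127, and these libraries were taken as pairs. Libraries of different numbers were not compared in this way. The higher numbers stood apart from the lower numbers in each group of the FGF experiment. That difference alone can give such correlations, so the check cannot show that libraries of equal number are pairs. In the other comparisons not every pair passed 0.1 (lowest -0.00409, SAG and DMSO replicate 1). No 2 libraries of a group agreed within sampling noise.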

Additional observations from a re-analysis of the deposited data

Results flagged for a closer look

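In groups of 4 libraries, the highest or lowest value was set against the range of its group by Dixon's criterion. Of 80 groups of values (39 members and their sum, in PBS and FGF2), 5 held such a value, and chance alone gives about 4. In FGF2 replicate 3, *Mcm3* was at 136 CPM with the next library at 30.1 CPM, *Mcm4* was at 98.3 CPM with the next at 27.9 CPM, and *Rfc1* was at 133 CPM with the next at 61.7 CPM. *Pcna* was at 16.9 CPM in FGF2 replicate 1, with the other 3 libraries at 31.8 to 32.3 CPM. *Dnmt1* was at 51.2 CPM in PBS replicate 3, with the next at 28.9 CPM. The summed level of the members was not set apart by this criterion in either group.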

How the results depend on the processing

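edgeR called 0 members in each of the 5 comparisons, and no setting within edgeR called any. That includes the study's threshold, applied here to the edgeR fits, and the fits with the replicate block. The DESeq2 Wald test called 1 member, *Mcm5* in PBS against DMSO (log2 fold change 1.94, adjusted p 0.00118), which also passed the study's threshold. For this gene edgeR gave adjusted p values of 0.0747 to 1 over its settings. The cause of this difference between the methods was not tested. The median of the members for SAG against DMSO was -0.17 with the replicate block (16 higher, 21 lower) and 0.16 without it, and these replicate numbers do not pair the libraries. Leaving out 1 library gave medians of -0.027 to 0.12 for SAG against DMSO, -0.098 to 0.43 for FGF2 against PBS, -0.24 to 0.12 for FGF10 against PBS, -0.18 to 0.63 for FGF2 against FGF10 and 0.43 to 0.70 for PBS against DMSO. *Mcm5* in FGF10 against PBS was -0.49 and turned to 0.014 within replicates 1 and 2. Scaling by total counts gave 27 higher and 12 lower for FGF2 against FGF10 on the log2 CPM scale, against 31 and 8 with TMM. Over all genes, the DESeq2 Wald test called 398 for SAG against DMSO (edgeR 8), 120 for FGF2 against PBS, 104 for FGF10 against PBS, 90 for FGF2 against FGF10 and 193 for PBS against DMSO (edgeR 0 in each). Without a filter edgeR called 76, 0, 0, 2 and 36 in the same order, keeping genes whose mean count reached 10 it called 42, 0, 0, 0 and 4, and with all 5 groups in 1 fit 4, 0, 0, 0 and 1. With 1 SAG-experiment library left out it called 1 to 7 for SAG against DMSO. Values by replicate number, the sign-flip test of *Pola2* within pairs (p 0.125, against 0.0286) and the PBS pairs set against DMSO were added after seeing the data, and the ratio of the members' sums was 1.5 with DESeq2 size factors and 1.51 with total counts. *Orc1*, at 0 in most libraries, was tested in no comparison and *Gins3* not in SAG against DMSO, so differences of these genes were not assessed there.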
